A study of Mus musculus with 18 samples.

Results

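The genes described here are the constant regions of mouse antibodies and the chain that joins antibody molecules. They comprise 7 heavy chain genes (Ighm, Ighd, Ighg1, Ighg2b, Ighg2c, Ighg3 and Igha), the light chain genes Igkc and Iglc1, and Jchain. The 10 genes were taken by symbol from the 54347 rows of a gene count table. For 9 of them the table gave the symbol, and Ighg1 was found through its gene ID, ENSMUSG00000076614, because its row had no symbol. The genes were chosen by levels measured in these same libraries, namely their high counts in the inguinal libraries of wt replicate 3 and ko replicate 2, which also carried lymph node genes. Those counts, and every difference that rests on them, are therefore given as a description and support nothing.

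The libraries came from C57BL/6N mice aged 12 weeks that lacked Gm15551 (ko, C57BL/6N-ΔGm15551) and from wild type mice (wt). Gm15551 is a long noncoding RNA gene, and in the ko mice CRISPR editing had removed a stretch that includes its first exon from the germline, so all tissues carried the deletion. Poly(A) RNA was sequenced from interscapular brown (iBAT), inguinal white (iWAT) and epididymal white (eWAT) adipose tissue of the same 6 mice, 3 of each genotype, which gave 18 libraries in 6 groups of 3. Each library was a whole piece of tissue, in which fewer cells of a type and less RNA per cell cannot be told apart.

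The smallest library, eWAT ko replicate 3, held 14997901 counts and the largest, from eWAT of ko replicate 2, 34389586. Gm15551 had 40 to 316 counts in the 9 wt libraries and 0 to 4 in the 9 ko libraries. Ucp1, the uncoupling protein of brown fat, had 3411 to 7970 CPM (counts scaled by library size) in iBAT against at most 55.1 CPM in iWAT and 1.33 CPM in eWAT, and Wt1, a marker of visceral fat, was at 5.04 to 14.3 CPM in eWAT and at most 0.0971 CPM elsewhere. iWAT wt replicate 3 and iWAT ko replicate 2 held 2190 and 541 counts of Glycam1, a mucin of lymph node venules, against 0 to 3 in the other libraries. eWAT ko replicate 3 stood apart by genes of the epididymis, with a sum of 4805 CPM over 6 of them against at most 16.5 CPM in any other eWAT library. iWAT ko replicate 1 stood apart by 6 genes of skeletal muscle, which summed to 4211 CPM there and to at most 21.3 CPM in iBAT and 15.3 CPM in eWAT.

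A B cell that has not yet met its antigen carries IgM and IgD on its surface, both made from 1 rearranged heavy chain gene by splicing to the mu (Ighm) or delta (Ighd) exons. Class switch recombination then replaces mu by gamma (Ighg1, Ighg2b, Ighg2c, Ighg3), epsilon or alpha (Igha) exons, by cutting DNA in repetitive switch regions upstream of each constant gene. Each heavy chain pairs with a kappa (Igkc) or lambda (Iglc1) light chain, and the J chain links IgM and IgA into the polymers that plasma cells secrete. Transcripts can also start upstream of a switch region in an unrearranged locus, giving germline transcripts that hold a constant region without a variable one. Adipose tissue and the fat around the peritoneum are known to house B-1 and B-2 cells and plasma cells, and the inguinal depot encloses a lymph node.

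All 7 heavy chain genes lie on the minus strand of chromosome 12. In GRCm38 with GENCODE M21 annotation, Ighm spans chr12:113418558-113422730, Ighd chr12:113406604-113416324 and Igha, at the far end, chr12:113254830-113260236. Ighg3 spans chr12:113356224-113361232, Ighg1 chr12:113325240-113330523, Ighg2b chr12:113302965-113307933 and Ighg2c chr12:113285325-113288932. Igkc is at chr6:70726435-70726966 on the plus strand, Iglc1 at chr16:19061618-19062071 on the minus strand and Jchain at chr5:88519809-88527891 on the minus strand.

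How far reads can tell the 4 gamma genes apart depends on their sequence. The first 60 bases of the exon for CH1, the first constant domain, are shown for each gene from the GENCODE M21 transcripts, because this is the part that follows the variable region directly. Capitals mark the 22 positions at which the 4 genes do not all carry the same base.
Ighg1 (chr12:113330464-113330523, minus strand): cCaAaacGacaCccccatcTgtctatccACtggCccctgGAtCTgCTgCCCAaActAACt
Ighg2b (chr12:113307874-113307933, minus strand): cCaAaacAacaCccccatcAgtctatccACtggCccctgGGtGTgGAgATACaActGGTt
Ighg2c (chr12:113288873-113288932, minus strand): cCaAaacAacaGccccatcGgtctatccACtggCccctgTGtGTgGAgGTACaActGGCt
Ighg3 (chr12:113361173-113361232, minus strand): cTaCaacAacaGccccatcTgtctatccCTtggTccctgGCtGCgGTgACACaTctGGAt
Ighg2b and Ighg2c shared 55 of these 60 bases and Ighg1 and Ighg3 42, with the other pairs at 46 or 47. Over whole transcripts, 70 of the 1276 windows of 50 bases in Ighg2c (5.49%) and 109 of the 2628 in Ighg2b (4.15%) occurred unchanged in another gene. The share was 1.58% for Ighg3, 0.393% for Ighg1 and 0.288% for Jchain, and no such window was found for Ighm, Ighd, Igha, Igkc and Iglc1. The split of counts between Ighg2b and Ighg2c is therefore the least certain.

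Upstream of Ighm, GENCODE M21 annotates 4 short rows as microRNA genes inside the mu switch region. They are printed because their counts come from sequence that lies between the joined variable region and the first mu exon, and capitals mark each copy of GAGCT, the pentamer of mouse switch regions, searched in the transcribed direction only.
Gm22175 (ENSMUSG00000092748, chr12:113425150-113425227, minus strand): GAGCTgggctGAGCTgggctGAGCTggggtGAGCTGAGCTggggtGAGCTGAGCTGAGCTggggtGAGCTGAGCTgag
Gm24022 (ENSMUSG00000104594, chr12:113424724-113424783, minus strand): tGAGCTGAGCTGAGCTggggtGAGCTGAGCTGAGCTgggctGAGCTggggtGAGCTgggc
Gm24022 (ENSMUSG00000092737, chr12:113424719-113424788, minus strand): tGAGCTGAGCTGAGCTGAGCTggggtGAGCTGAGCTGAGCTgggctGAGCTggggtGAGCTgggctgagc
Gm25747 (ENSMUSG00000092683, chr12:113424645-113424722, minus strand): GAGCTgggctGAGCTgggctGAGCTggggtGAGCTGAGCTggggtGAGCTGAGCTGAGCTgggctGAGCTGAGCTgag
The rows hold 8 to 10 copies each, and those called Gm24022 overlap each other. Of 140607 annotated transcripts, 18 (0.0128%) hold at least 5 copies of the motif in any stretch of 78 bases. Because the rows repeat the same letters, only their sum is used beside Gm22175.

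Ighm was the member with the highest level per length in every tissue once the lymph node libraries were set aside. Its median was 6.50 CPM per kb of exon in iBAT, 73.0 in the 4 other iWAT libraries and 136 in eWAT. Igkc, the next, had medians of 8.56 CPM per kb in those iWAT libraries and 12.2 in eWAT. Ighd, Igha and Jchain lay below Igkc in each tissue, with medians over all 6 libraries of 0.336, 0.231 and 0.269 CPM per kb in iBAT.

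In iBAT, Ighm was at 10.6, 15.5 and 13.9 CPM in wt replicates 1 to 3 and at 5.62, 10.3 and 14.0 CPM in ko replicates 1 to 3. In iWAT it was at 174, 102 and 646 CPM in wt and at 173, 304 and 61.4 CPM in ko, with the values of 646 and 304 in the lymph node libraries. In eWAT it was at 268, 247 and 276 CPM in wt and at 565, 220 and 61.8 CPM in ko. Every white adipose library lay above every iBAT library, with or without the lymph node pair, and the lowest values of both white tissues came from ko replicate 3. Its eWAT library is the one with epididymis genes, and their part in the low value was not tested. In iWAT 1679 to 19644 counts stand behind these levels and in iBAT 72 to 240.

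**Figure D1:**
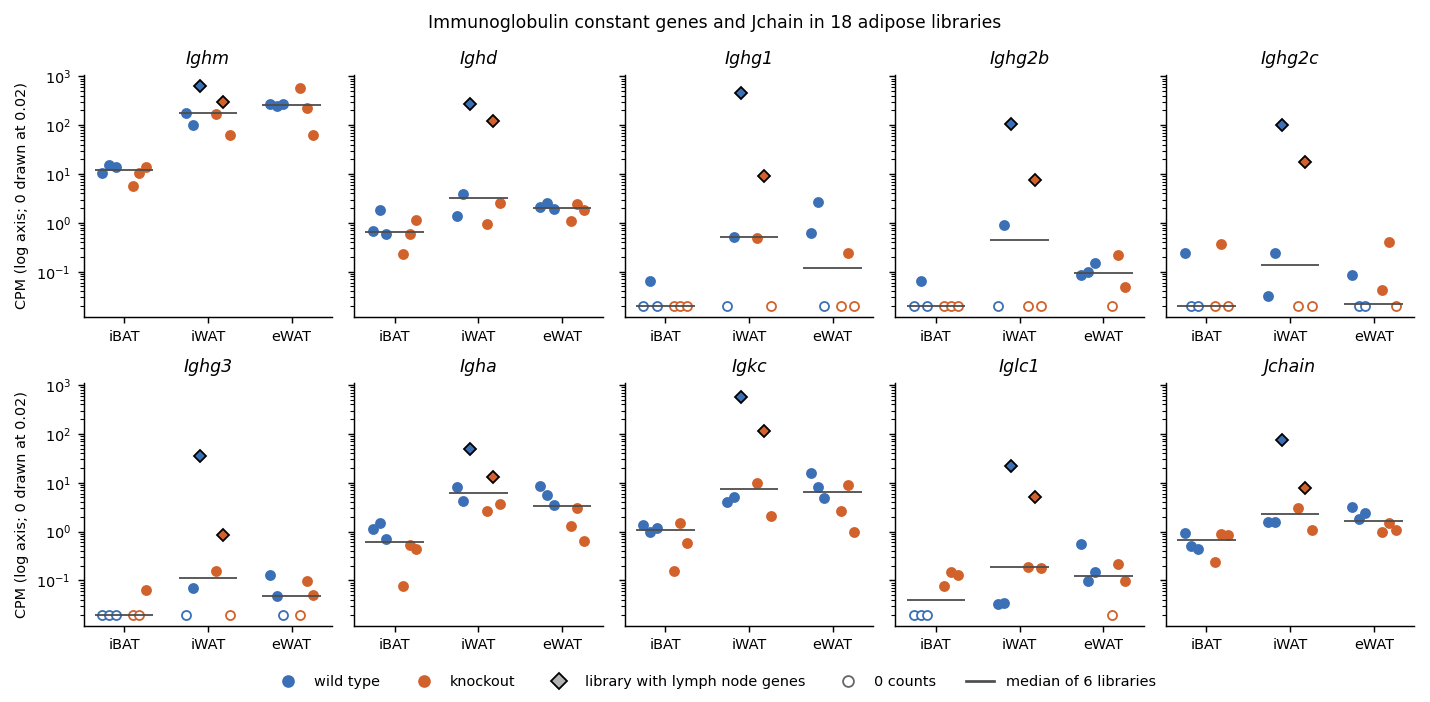
Level of each of the 10 genes in CPM (log axis) in the 18 libraries by tissue and genotype, with diamonds for iWAT wt replicate 3 and iWAT ko replicate 2, open symbols for libraries with 0 counts and a line at the median of the 6 libraries of a tissue. Ighm lies between 61.4 and 646 CPM in all white adipose libraries and at or below 15.5 CPM in iBAT, while no gamma gene exceeds 2.71 CPM outside the diamonds.

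In edgeR's quasi-likelihood test with Benjamini-Hochberg adjustment, the log2 level of Ighm in eWAT exceeded that in iBAT by 4.58 ± 0.58 (SE, 6 libraries against 6, adjusted p = 4.63e-06), and the difference had this sign in 6 of 6 mice. Between these tissues 54.6% of all 18728 tested genes were called, 30.2% being higher in eWAT, and the median over all genes was 0.18. Of the 9 members that passed the filter on low counts, Ighm and Igha were called. Ighg2b, Ighg2c and Iglc1 did not pass that filter once the lymph node libraries were left out, so nothing is read from the share of members called. Ighg3 did not pass the filter.

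Igha, the IgA heavy chain, was the other call between eWAT and iBAT. It was at 1.11, 1.49 and 0.709 CPM in the wt and 0.0781, 0.525 and 0.449 CPM in the ko libraries of iBAT, and at 8.42, 5.71 and 3.50 CPM in wt and 1.33, 3.05 and 0.642 CPM in ko in eWAT. The tissues overlapped, since eWAT ko replicates 1 and 3 lay within the range of iBAT. The difference was 2.33 ± 0.63 (adjusted p = 0.00478, edgeR, 6 libraries against 6).

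The other members were low in both iBAT and eWAT. Igkc ranged from 0.156 to 1.50 CPM in iBAT (median 1.07) and from 0.987 to 15.9 CPM in eWAT (median 6.48). Its difference of 2.88 ± 1.27 did not pass the test with 18 libraries (adjusted p = 0.0652, edgeR) but did so when mouse was blocked (3.27, adjusted p = 0.0307). In the same edgeR fit Ighd, with medians of 0.639 and 2.03 CPM, differed by 1.28 ± 1.27 (adjusted p = 0.409), and Jchain, with medians of 0.676 and 1.65 CPM, by 1.34 ± 0.88 (adjusted p = 0.207).

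The fit shares its estimate of spread over all tissues, so the lymph node libraries of iWAT also set the errors for eWAT against iBAT. Without them the estimates moved little and the errors shrank, and 6 of the 6 members still tested were called in eWAT against iBAT, beside 57.8% of 19250 genes. Ighm then differed by 4.56 ± 0.47 (adjusted p = 8.79e-07), Igha by 2.32 ± 0.44 (3.31e-04), Igkc by 2.81 ± 0.61 (0.00116), Jchain by 1.44 ± 0.39 (0.00519), and Ighd by 1.26 ± 0.42 (0.0181), all by edgeR with Benjamini-Hochberg adjustment. Ighg1 was the sixth call (adjusted p = 0.0277, edgeR). Ighg1 had 56 counts in eWAT wt replicate 2, 14 in wt replicate 1, 10 in ko replicate 2 and 0 in the other 3, against 1 count in all of iBAT. Those 3 libraries carry its call, and because iBAT was at or below 3 counts in every library no fold is given. The same holds for Ighg2b, Ighg3 and Iglc1 against iBAT, whose fitted values depend on the prior count.

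For iWAT against iBAT the fit with all 18 libraries called 9 of 9 members, all higher in iWAT, beside 54.3% of all genes and 30.3% higher in iWAT. Because the members were chosen by the lymph node libraries that enter this comparison, nothing is read from that count. Without those libraries 5 of 6 members were called, beside 45.4% of all genes, namely Ighm, Igha, Igkc, Jchain and Ighd. Ighg1 did not pass (adjusted p = 0.0745, edgeR). Ighg2b, Ighg2c and Iglc1 no longer passed the filter.

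Ighm differed between iWAT and iBAT by 4.36 ± 0.58 with all libraries and by 3.46 ± 0.47 without the pair (adjusted p = 2.52e-05, edgeR, 4 libraries against 6). For Igha the edgeR values were 4.21 ± 0.66 and 2.84 ± 0.47 (adjusted p = 1.61e-04), and for Igkc 6.70 ± 1.37 and 2.56 ± 0.65 (adjusted p = 0.00473). Leaving out the pair took the edgeR estimate for Ighd from 6.23 ± 1.34 to 1.38 ± 0.45 (adjusted p = 0.0213) and that for Jchain from 4.06 ± 0.95 to 1.50 ± 0.42 (adjusted p = 0.00826). All 5 genes were higher in iWAT than in iBAT in 6 of 6 mice.

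**Figure D2:**
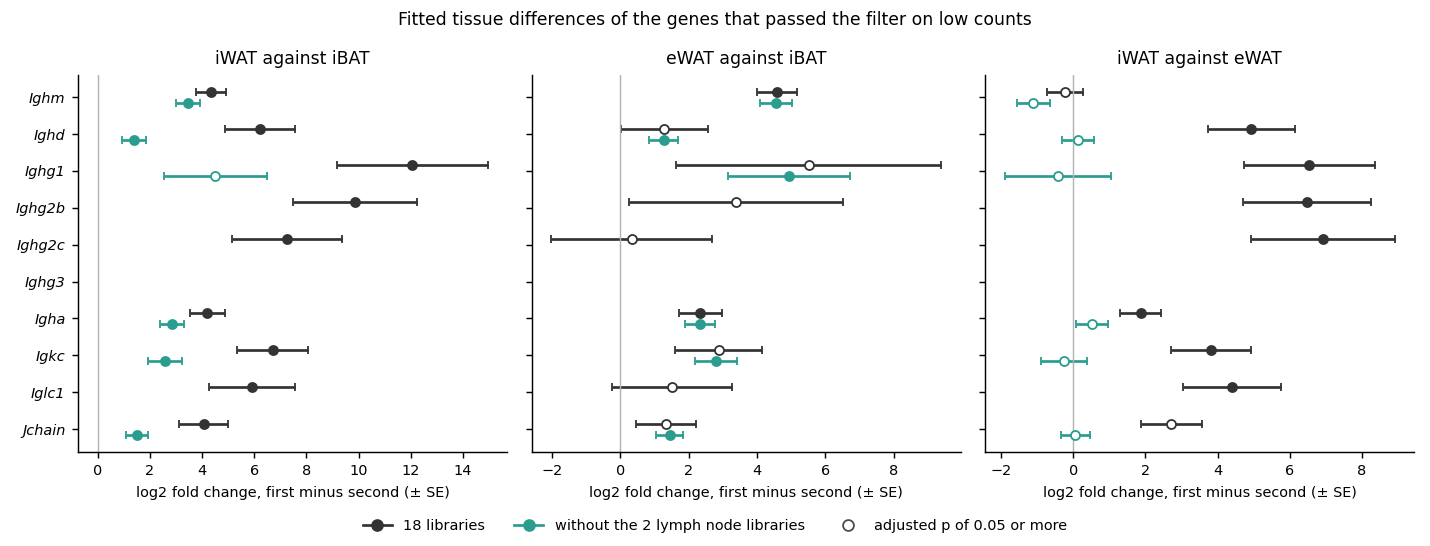
Difference of each tested member between tissues as log2 fold change with its standard error, from edgeR with all 18 libraries and without iWAT wt replicate 3 and iWAT ko replicate 2, with open symbols where the adjusted p was 0.05 or above. For iWAT against eWAT, Igkc moves from 3.82 to -0.25 and Ighd from 4.94 to 0.12 when that pair is left out.

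Between the white tissues the calls changed with the lymph node pair and with the model. With all libraries 7 of 9 members were called higher in iWAT than in eWAT, beside 10.2% of all genes and 5.70% higher in iWAT, and Ighm (-0.22 ± 0.50) and Jchain were the exceptions. Nothing is read from that count either, because the lymph node libraries that chose the members enter this comparison. Without the pair 0 of 6 members were called by edgeR, beside 7.94% of all genes. Ighm was the single member with an unadjusted p below 0.05, beside 4369 of 19250 genes, so nothing is read from that count. Igkc then differed by -0.25, Ighd by 0.12, Jchain by 0.06, Igha by 0.51 and Ighg1 by -0.42 on the log2 scale. Blocking on mouse, with all libraries kept, also gave a count of 0 of 9, beside 1732 of 18728 genes. In that fit 4 members had an unadjusted p below 0.05. The share of all genes at that cut is not given here, so nothing is read from them.

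Ighm leaned towards eWAT once the pair was set aside. Its difference was -1.10 ± 0.46 without the pair (iWAT minus eWAT, unadjusted p = 0.0302, adjusted p = 0.164, edgeR), and -1.53 ± 0.40 (adjusted p = 0.0259) when the libraries with muscle and epididymis genes were left out as well. Igkc was at -1.21 in that last fit (adjusted p = 0.163, edgeR). In 2 of 6 mice Ighm was higher in iWAT, and those were the mice whose iWAT carried the lymph node genes.

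Ighm stood far above the kappa light chain, with which most mu chains of the mouse pair. Counts of Ighm were 17.5 to 42.6 times those of Igkc in the 4 other iWAT libraries, 16.8 to 217 times in eWAT and 6.90 to 24.2 times in the 5 iBAT libraries with more than 3 Igkc counts. In the lymph node libraries the ratio was 1.14 in wt replicate 3 and 2.66 in ko replicate 2. The widest gap was in eWAT ko replicate 1, with 13210 counts of Ighm and 61 of Igkc.

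The same held against the rows of the 185 heavy chain variable segments, which rearranged Ighm transcripts also contain. Ighm had 59.3 to 601 times their summed counts in eWAT and 60.6 to 149 times in the 4 other iWAT libraries, against 5.02 and 6.63 times in the lymph node libraries. In eWAT ko replicate 1 the variable segments summed to 22 counts. Against Ighd the ratio was 33.0 to 528 in eWAT, 23.7 to 180 in the 4 other iWAT libraries, and 2.39 and 2.52 in the lymph node pair. Igkc, by contrast, had 1.93 to 2.70 times the counts of its 160 variable segments in the 4 other iWAT libraries, 1.96 to 2.54 times in eWAT, and 1.75 and 2.50 times in the lymph node pair, so for the light chain these ranges overlapped.

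**Figure D3:**
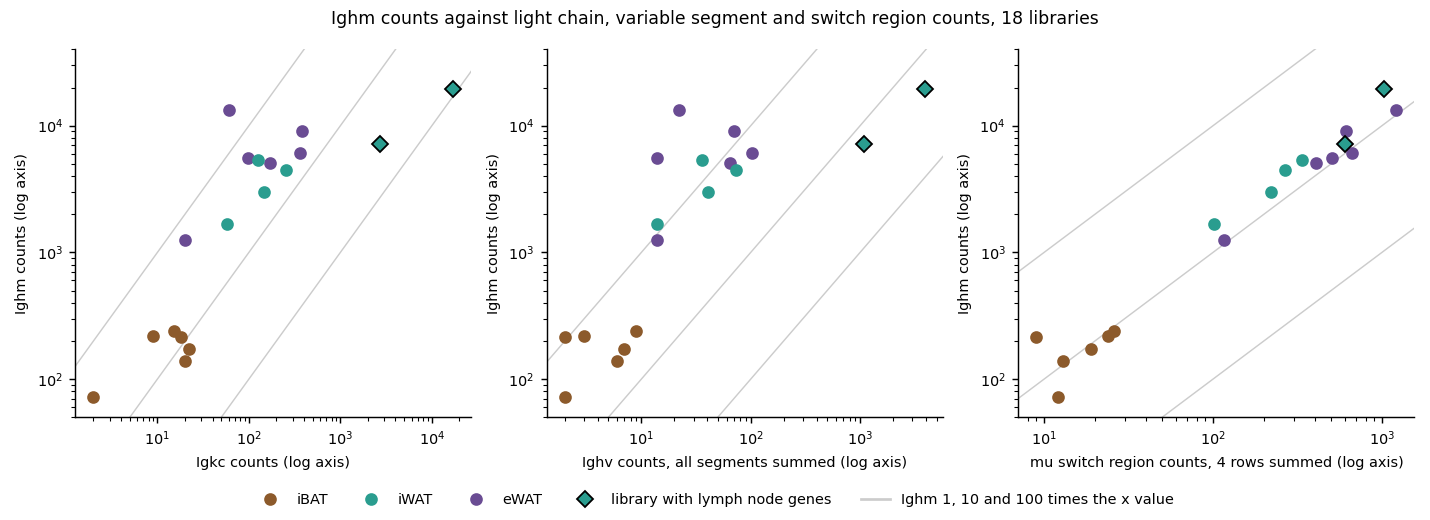
Counts of Ighm in each library (vertical axis, log) against Igkc, against the summed heavy chain variable segments and against the 4 mu switch region rows summed (horizontal axes, log), with grey lines where Ighm is 1, 10 and 100 times the other row. The lymph node libraries (diamonds) leave the other white adipose libraries in the first 2 panels, with ratios to Igkc of 1.14 and 2.66, and lie near them in the panel of the switch rows, at ratios of 11.9 and 19.2 beside 9.21 to 16.9.

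The mu switch rows kept a narrower proportion to Ighm in the white tissues than Igkc or the variable segments did. Ighm had 13.6 to 16.9 times their summed counts in the 4 other iWAT libraries, 9.21 to 14.8 times in eWAT and 6.00 to 24.0 times in iBAT, where the rows held 9 to 26 counts. The lymph node libraries had ratios of 19.2 in wt replicate 3 and 11.9 in ko replicate 2. These 2 values thus enclosed the range of the other iWAT libraries, although their ratios to Igkc and to the variable segments did not.

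Gm22175, the switch row with its letters printed first, had 5 to 20 counts in iBAT libraries, while iWAT libraries had 62 to 639 and those of eWAT 76 to 746, with the highest value in eWAT ko replicate 1, where Ighm was also highest in that tissue. Gm22175 was 4.38 ± 0.61 higher in eWAT than in iBAT (log2, adjusted p = 1.22e-05, edgeR), and 3.68 ± 0.59 higher in iWAT than in iBAT, or 2.76 without the lymph node pair. The summed switch rows were higher in both white tissues in 6 of 6 mice and higher in iWAT than in eWAT in 2 of 6. Whether switch rows and Ighm came from the same molecules was not tested, since the table gives counts per gene.

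Without the lymph node pair, B cell markers differed less between tissues than Ighm did at the median, and some did not pass the test. Cd79a, the signalling chain of the B cell receptor, had medians of 1.24 CPM in iBAT, 1.14 in the 4 other iWAT libraries and 1.38 in eWAT, and 96.5 and 229 CPM in the lymph node libraries. Without that pair it differed by 0.15 between iWAT and iBAT (adjusted p = 0.832, edgeR) and by 0.36 between eWAT and iBAT (adjusted p = 0.504).

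The list of 11 B cell genes summed to 4.29 to 10.1 CPM in iBAT, 12.9 to 28.6 in the 4 other iWAT libraries, 13.5 to 36.2 in eWAT and 659 and 1414 CPM in the lymph node pair. Cd37, a tetraspanin that other leukocytes also carry, made up much of the sum outside the pair, with medians of 2.33, 10.6 and 14.3 CPM. Without the pair 4 of 11 B cell genes were called between iWAT and iBAT, all higher in iWAT, beside 45.4% of all genes called in either direction. Between eWAT and iBAT 6 of 11 were called, all higher in eWAT, beside 57.8%. The median log2 differences were 1.30 and 1.49, which lie below the 3.46 and 4.56 of Ighm. With all libraries 11 were higher in iWAT, beside 30.3% of all genes called higher, and 1 in eWAT, beside 30.2%. The medians were then 5.96 and 1.43. The part of B cells in the differences of the members between tissues was not tested.

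A list of plasma cell genes, many of them genes of secretion in general, was read in the same way. Without the lymph node pair 7 of 12 were higher in iWAT than in iBAT, beside 45.4% of all genes called, and 9 were higher and 1 lower in eWAT than in iBAT, beside 57.8%. Sdc1, the syndecan that marks plasma cells and is also made by epithelia, rose by 2.37 in iWAT and 2.49 in eWAT over iBAT (adjusted p = 4.46e-07 and 2.10e-07, edgeR, all libraries). Xbp1, a transcription factor of secretory cells, rose by 1.16 and 1.21. Both are also made by other cells of adipose tissue. Xbp1 was at 162 and 184 CPM in the pair beside a median of 190 CPM in the 4 other iWAT libraries, while the whole list summed to 524 and 568 CPM in the pair, above the 440.0 to 482 CPM of the other 4 and the 401 to 491 CPM of eWAT. With all libraries 10 of 12 were called higher in iWAT than in iBAT, beside 30.3% of all genes.

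The genes whose levels over the libraries were most like those of Ighm belonged to no B cell list. By Pearson's r of log2 CPM over 18 libraries they were Jpt1 (0.979), Gnai2 (0.977), Gm22175 (0.973), F730043M19Rik (0.971) and Il1rl1 (0.971), and over the 16 without the lymph node pair Elp3, Prr5, Plagl1, Mettl7b and Mxra8, at 0.981 to 0.987. These values carry the difference between brown and white tissue, which all 18 points share. Over the same 16 libraries r with Ighm was 0.970 for Gm22175, 0.826 for Igkc, 0.767 for Igha and 0.634 for Ighd.

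Igha and Jchain had other neighbours. The genes most like Igha over 18 libraries were Klrd1 (0.949), Nfatc2ip (0.940), Cyp11a1 (0.935), Septin6 (0.935) and Zfp217 (0.925), and Klrd1, Cyp11a1 and Nfatc2ip stayed among its first 5 over 16 libraries. For Jchain they were Birc3 (0.937), Fcer1a (0.937), Swap70 (0.932), S100a8 (0.930) and Syngr2 (0.928), and none of these was among the first 5 over 16 libraries. Immunoglobulin genes were left out of these rankings, and r with Igkc over 16 libraries was 0.881 for Igha and 0.907 for Jchain.

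Class-switched isotypes, gamma and alpha together, made up a small part of the heavy chain counts outside the lymph node pair. In iBAT the share was 10.7, 8.53 and 4.66% in wt and 1.32, 7.59 and 3.28% in ko. In the 4 other iWAT libraries it was 4.55 and 5.25% in wt and 1.87 and 5.51% in ko. In eWAT it was 3.34, 3.32 and 1.29% in wt and 0.241, 1.77 and 1.15% in ko.

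The share was lower in eWAT than in iBAT in 6 of 6 mice and lower in eWAT than in iWAT in 6 of 6, the lymph node pair included. Between iWAT and iBAT it was higher in iWAT in 4 of 6 mice, or in 2 of 4 without the lymph node mice, and the medians were 4.90% in the 4 other iWAT libraries and 6.13% in iBAT. A share also moves with its denominator, and the summed level of the class-switched genes was itself higher in eWAT, with a median of 3.83 CPM against 0.804 CPM in iBAT. The iBAT values rest on as few as 1 class-switched count among 76, for which the 95% Wilson interval is 0.233 to 7.08%. Such intervals, like the limit set by a count of 0, cover counting error only.

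In the lymph node pair the class-switched share was 45.0% (95% Wilson interval 44.5 to 45.4%) in wt replicate 3 and 10.1% (9.53 to 10.7%) in ko replicate 2. In the first, Ighg1 took 27.5% of heavy chain counts, Ighg2b 6.38%, Ighg2c 5.91%, Ighg3 2.16% and Ighm 38.8%. In the second, Ighg2c led the gamma genes with 3.69%, ahead of Ighg1 with 1.89%, and Ighm took 64.4%. The pair thus differed in isotype as well as in amount, and Ighg1 was at 458 CPM in the first and 8.91 CPM in the second.

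**Figure D4:**
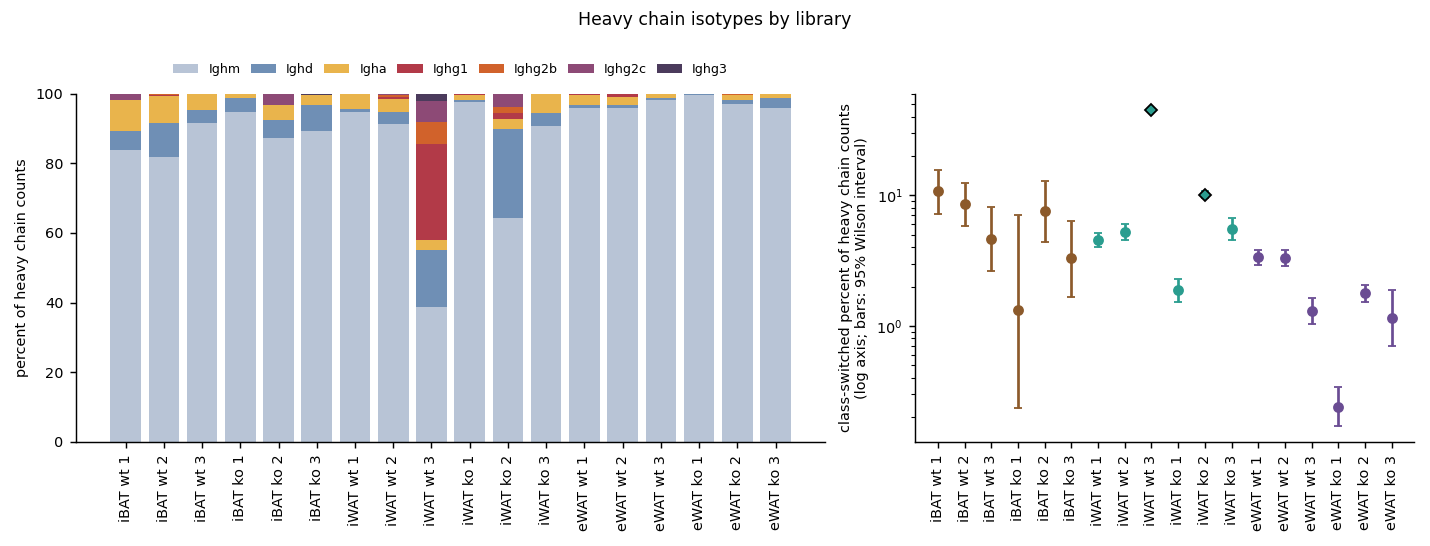
Share of the heavy chain counts of each library that falls to each isotype (stacked bars, percent), and the class-switched share with its 95% Wilson interval (points, percent). Ighm fills 90.7 to 99.6% of the bars of eWAT and of the 4 other iWAT libraries, against 38.8 and 64.4% in the lymph node pair, where Ighd holds 16.3 and 25.5%.

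Outside the pair, the isotype behind the class-switched share was mostly IgA. Igha held 70.8 to 100% of class-switched counts in the 4 other iWAT libraries and 66.7 to 96.9% in eWAT, against 6.70 and 27.1% in the lymph node pair. Gamma counts were few in those 4 iWAT libraries. Ighg1 was at 15 counts in iWAT wt replicate 2, 13 in ko replicate 1 and 0 in wt replicate 1 and ko replicate 3, and Ighg2b at 26 in wt replicate 2 and 0 in the other 3.

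Gamma counts in eWAT and iBAT were few as well. In eWAT, Ighg1 was highest in wt replicate 2, as given above, and Ighg2c had 17 counts in ko replicate 2 and at most 2 in any other library. Ighg3 had at most 4 counts in any library outside the pair. In iBAT, Ighg1, Ighg2b and Ighg3 had 1 count each over 6 libraries, so no level of these 3 genes could be given there at this depth, where 3 counts equal 0.185 CPM in wt replicate 1 and 0.234 CPM in ko replicate 1. Ighg2c had 4 counts in iBAT wt replicate 1, 5 in ko replicate 2 and 0 in the other 4.

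Ighd, the other unswitched isotype, separated the lymph node pair more sharply than Ighm did. It was at 271 CPM in wt replicate 3 and 121 CPM in ko replicate 2, and at 0.964 to 3.93 CPM in the 4 other iWAT libraries. In eWAT it lay between 1.07 and 2.52 CPM and in iBAT between 0.234 and 1.81 CPM. Its share of heavy chain counts was 16.3 and 25.5% in the pair, against 0.544 to 3.83% in the 4 other iWAT libraries and 0.188 to 2.91% in eWAT.

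The light chains were also far higher in the pair than in the rest of iWAT. Igkc was at 566 and 114 CPM in the pair and at 2.12 to 9.91 CPM in the 4 other libraries. Iglc1 was at 22.3 and 5.12 CPM in the pair and at 0.0324 to 0.193 CPM in the others, and Iglc2 held 1698 and 430 counts in the pair against at most 44 in any other library. Per length, Igkc was above Ighm in both lymph node libraries, with 1064 against 342 CPM per kb in wt replicate 3 and 215 against 161 in ko replicate 2.

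Jchain was at 74.6 CPM in wt replicate 3, 7.89 in ko replicate 2 and 1.10 to 3.01 CPM in the 4 other iWAT libraries. In eWAT it was at 0.984 to 3.16 CPM. Igkc had 7.59 times the Jchain counts in wt replicate 3 and 14.5 times in ko replicate 2, against 1.93 to 3.30 times in the 4 other iWAT libraries and 0.909 to 6.13 times in eWAT. Wt replicate 3 was thus well above ko replicate 2 in Jchain, Igkc and the gamma genes, and about level with it in the ratio of Ighm to Ighd.

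Immunoglobulin genes together took 0.406% of all counts in wt replicate 3 and 0.0961% in ko replicate 2. In the 4 other iWAT libraries they took 0.00869 to 0.0221%, in eWAT 0.00928 to 0.0662% and in iBAT 0.000439 to 0.00146%. Epsilon transcripts (Ighe) had 75 and 4 counts in the pair, at most 5 in the 4 other iWAT libraries and 0 elsewhere. The T cell list summed to 212 to 708 CPM in the pair and 9.52 to 37.6 CPM in the 4 others, and the lymph node stroma list to 150 to 461 and 1.88 to 18.4 CPM.

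Genes that act on immunoglobulins were read from lists of the same kind. Of the 9 genes of class switch recombination that were tested, most of which also serve general DNA repair, 1 was higher and 2 lower in iWAT than in iBAT without the pair, and 3 higher and 2 lower in eWAT. Of the immunoglobulin receptors, 6 of 10 were higher in iWAT than in iBAT and 5 of 10 in eWAT than in iBAT. For both lists 45.4% of all genes were called between iWAT and iBAT in these fits, and 57.8% between eWAT and iBAT. Fcmr, the receptor for IgM, was at 48.7 and 86.5 CPM in the pair and had medians of at most 0.349 CPM in the other classes of library, and Pigr, which carries polymeric IgA and IgM across epithelia, stayed below 1 CPM at the median in every tissue and was not called.

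The variable segments behind these constant genes were many in the pair and few elsewhere. With more than 3 counts, 82 heavy chain and 86 kappa segments were seen in wt replicate 3, and 69 and 67 in ko replicate 2, against at most 6 and 10 in any other library. In the pair the leading segments held small shares, Ighv1-64 12.0% and Igkv3-4 14.1% in wt replicate 3, and Ighv9-1 4.93% and Igkv12-44 5.29% in ko replicate 2. Fewer counts also let fewer segments pass 3 counts, and the libraries were not thinned to equal depth.

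In some other libraries 1 segment held a larger share, and the 3 with the most segment counts in total are given here. In iWAT ko replicate 1, the library with muscle genes, Ighv11-2 had 15 of 74 heavy chain segment counts (20.3%) and Igkv14-126 31 of 132 kappa counts (23.5%). In eWAT ko replicate 2, the same segments led with 13 of 71 (18.3%) and 44 of 189 (23.3%). The pairing of Ighv11 with Igkv14-126 is known from B-1a cells that bind phosphatidylcholine, and whether these counts came from such cells was not tested. In eWAT wt replicate 1 others led, Ighv5-4 with 43 of 103 (41.7%) and Igkv8-19 with 88 of 185 (47.6%). Elsewhere the leading share could be smaller, with 13.9% for Ighv in iWAT wt replicate 1, 14.8% for Igkv in iWAT wt replicate 2 and 9.76%, or 4 of 41 counts, for Igkv in eWAT wt replicate 3.

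The loss of Gm15551 was the variable of the study, and no member was called for it. Across tissues 0 of 9 members passed edgeR's test, beside 0.00534% of all genes, and Ighg1 and Igha were the 2 members with an unadjusted p below 0.05, beside 2.19% of all genes. DESeq2, which gave 3 members an adjusted p, and limma also called 0. In iBAT the counts were 0 of 9, beside 0% of all genes, and 0 of 9 unadjusted, beside 1.27%. In iWAT they were 0 of 9, beside 0%, and 2 unadjusted (Ighg1 and Jchain), beside 2.22%. Both were highest in wt replicate 3, whose high values helped choose the genes. Without the lymph node pair 0 of 6 members reached that p in iWAT. Nothing is therefore read from the 2 members in iWAT or from the 2 across tissues. In eWAT the counts were 0 of 9, beside 0.00534%, and 0 unadjusted, beside 4.35%. No member and 0% of all genes were called for a difference of the genotype effect between tissues.

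All 9 tested members had negative estimates across tissues (ko minus wt), from -0.36 for Ighm to -5.13 for Ighg1, beside a median of 0.005 over all genes. The members are not independent of each other, so nothing is read from the number of negative signs. The values for Ighg1 rest on 13934 counts in iWAT wt replicate 3, against 209 in the next iWAT library. Without the lymph node pair the 6 members tested were negative too, from -0.17 for Ighm to -2.11 for Ighg1. In iWAT all 9 were negative as well, from -0.78 for Ighm to -5.62 for Ighg1, while in iBAT and eWAT the signs were mixed. In iWAT, leaving out the pair gave mixed signs, with 4 of 6 members negative, from -0.97 for Igha to 0.40 for Igkc, and with Jchain at 0.38 and Ighg1 at -0.04. The estimate for Ighm across tissues had an SE of 0.41 (unadjusted p = 0.394 by edgeR over 18 libraries, adjusted p = 0.9999). The lymph node library of the wt mice held more immunoglobulin than that of the ko mice, and in iWAT the genotypes and the amount of node cannot be told apart with 1 such library in each.

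Igha was the member with an unadjusted p below 0.05 both with and without the lymph node pair. It was at 1.10 ± 0.39 CPM in wt and 0.351 ± 0.239 CPM in ko in iBAT (SD, n = 3 libraries each), and at 5.87 ± 2.46 and 1.67 ± 1.24 CPM in eWAT. In iWAT Igha was at 20.9 ± 25.4 CPM in wt and 6.42 ± 5.62 CPM in ko, and these groups overlapped. Among the 4 libraries other than the pair it was at 8.32 and 4.17 CPM in wt and 2.66 and 3.73 CPM in ko. How many of all genes keep the genotypes apart within a tissue was not counted, so nothing is read from the order of these values.

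Across tissues Igha differed by -1.71 ± 0.49 (ko minus wt, log2, unadjusted p = 0.0028 by edgeR), and by -1.51 ± 0.37 without the lymph node pair (unadjusted p = 9.17e-04). After Benjamini-Hochberg adjustment over all genes p was 0.9999 in both, so the difference did not pass. The 3 libraries of a mouse are not independent, and with counts summed per mouse, 3 mice against 3, 0 of 8 tested members had even an unadjusted p below 0.05 by edgeR. In iBAT the ko values came from 1 to 7 counts.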

How the data were processed

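Poly(A) RNA of 18 adipose tissue libraries had been sequenced in pairs. The authors trimmed reads with cutadapt, assigned them with Salmon to transcripts of GENCODE M22 (GRCm38) and deposited estimated counts per gene, rounded to whole numbers, without normalisation. Salmon divides reads that match several transcripts, so counts of genes with shared sequence are estimates. Versions of these tools are not given in the sources used here.

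Libraries were grouped by the tissue and genotype in their labels. Genes were filtered with filterByExpr, which left 18728, scaled by TMM and tested with edgeR 4.0.16 (quasi-likelihood, Benjamini-Hochberg over all tested genes, threshold 0.05), with tissue and genotype as terms or, for genotype within a tissue, with 1 mean per group. The scripts were first tested on simulated data. CPM are counts per TMM-scaled library size, and CPM per kb divides them by exon length in GENCODE M21. Of the rows without a symbol, 22260 were named from M21 by gene ID. Alternatives were DESeq2 1.42.0, its size factors, limma 3.58.1 (voom with quality weights), no filter, other sets of libraries, blocks, and each mouse left out.

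The labels give a tissue, a genotype and a replicate number, and the 3 tissues with the same genotype and number were taken as 1 mouse. Deviations from the group means correlated at -0.165 to 0.326 between tissues of 1 mouse, and the mouse block was an alternative. Separate mice are the replicates. The members, gene lists, libraries and tests were chosen with earlier results of these data known. Named genes were the 10 members, the genes of fixed lists, and the 5 genes most like Ighm, Igha and Jchain. Segments and switch rows were chosen after their values were seen.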

Additional observations from a re-analysis of the deposited data

Results flagged for a closer look

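For each of the 10 genes in each tissue, the highest or lowest of the 6 libraries was checked for a gap to its nearest neighbour that, as a part of the whole range, exceeds Dixon's 95% critical value for 6 samples. Of 30 such checks 13 passed, from 5 libraries. Chance passes about 1 in 20 such checks, but the count is not to be set against that, because 8 of the 13 are in a library whose high values chose the genes and 3 rest on 1 count against 0.

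In iWAT, wt replicate 3 stood apart in 8 genes, and it is 1 of the lymph node libraries. Ighg1 was at 458.1 CPM there with the next library at 8.912, Ighg2b at 106.2 with the next at 7.505, Ighg2c at 98.39 with the next at 17.4, and Ighg3 at 35.93 with the next at 0.8528. Igha was at 50.17 CPM with the next library at 12.88, Igkc at 565.8 with the next at 114.2, Iglc1 at 22.29 with the next at 5.117, and Jchain at 74.59 with the next at 7.889. In all 8 genes the next library was ko replicate 2, the other lymph node library.

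In eWAT, Ighg1 was at 2.709 CPM (56 counts) in wt replicate 2 with the next library at 0.6137, and Ighg2c at 0.4112 CPM (17 counts) in ko replicate 2 with the next at 0.08767. In iBAT the separate library had 1 count and the others 0, with Ighg1 and Ighg2b at 0.06462 CPM in wt replicate 2 and Ighg3 at 0.06419 CPM in ko replicate 3.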

How the results depend on the processing

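Under the alternatives, 268 of 387 fold changes of single members between tissues kept their direction and side of the threshold, 83 lost the call, 19 gained it and 17 turned. Of 111 counts of called members 88 stayed within 1.5 times the main count, and all 27 medians of the class-switched share moved by less than the spread between libraries. The number of members called for genotype was 0 in every alternative, the replicate number as a block included, which does not pair the genotypes (r of -0.465 to 0.551 between wt and ko libraries of the same number).

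The count for iWAT against iBAT (9 in the main fit) was 3 with DESeq2, which gave an adjusted p to 3 members, 4 with limma, 5 without the lymph node pair, 4 without the 4 libraries of mixed tissue and 5 with the mouse as replicate block without the pair. For eWAT against iBAT (2) it was 4 with limma, 6 without the pair, 6 without the 4 libraries, 1 with wild type libraries alone and 6 with the block without the pair. For iWAT against eWAT (7) it was 2 with DESeq2, 1 with limma, 0 without the pair and 1 without the 4 libraries. The 7 of the main fit were higher in iWAT, and the 1 call with limma and without the 4 libraries was Ighm, lower in iWAT. It was 0 each with the replicate block, with wild type libraries alone and with the block without the pair. Leaving out 1 mouse gave 7 to 10, 2 to 3 and 0 to 4, and the 0 came from wt replicate 3 and from ko replicate 2.

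All turns between tissues were, but for those of Ighg2c in eWAT against iBAT, in iWAT against eWAT. Ighm was at 0.233 with wild type libraries alone and at -0.742 to 0.266 with 1 mouse left out. Ighd was at -0.045 with the replicate block without the pair. Ighg1 was at -1.11 with limma, -0.425 without the pair, -2.31 without the 4 libraries and -1.36 with the block without the pair. With limma Ighg2b was at -0.428, Ighg2c at -0.163 and Igkc at -0.139. Igkc was at -0.248 without the pair and -1.21 without the 4 libraries, which also gave -1.5 for Iglc1 and -0.476 for Jchain. In eWAT against iBAT, Ighg2c was at -0.243 with DESeq2, -0.172 with the replicate block and -0.399 to 0.925 with 1 mouse left out. Between genotypes, Igkc (0.40) and Jchain (0.38) turned positive in iWAT without the pair. The cause was not tested, beyond the libraries left out. Depth limits iBAT most, where Igha had 1 to 23 counts in a library and the gamma genes at most 5. The replicate block without the pair was chosen after seeing the data.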
